A study of Mus musculus with 6 samples.

Results

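Mouse genes that carry only a predicted-gene symbol (Gm followed by a number) or a cDNA clone symbol (ending in Rik) were followed by RNA sequencing in RAW 264.7 cells, a mouse macrophage-like line. The genes were chosen by their symbol and by their level, a mean over all 6 libraries of at least 5 CPM (the count divided by the library total, scaled as CPM). The authors counted 21604 symbols, of which 5203 were of these kinds. Of these, 244 passed, 92 with a Gm symbol and 152 with a Rik symbol. All cells were wild type and were exposed to 100 ng/mL lipopolysaccharide (LPS, a component of the outer membrane of bacteria) for 24 h. In 3 libraries the cells also received 2 mg/mL of an agent labelled PE-CUR over the same time, and 3 libraries had LPS alone. The submitters' stated interest was whether PE-CUR acts on inflammation and on osteoclast formation in these cells. The labels give no cells without LPS and no carrier control, so the comparison is PE-CUR on top of LPS against LPS. They also give the cell type as bone marrow macrophage, although the line was established from a tumour, and all libraries come from this 1 line. The labels do not say whether replicates were separate cultures, so p-values measure only the spread between these samples.

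A Gm symbol is given to a gene found by genome annotation, and a Rik symbol to one first seen as a full-length cDNA clone, so neither name says what the gene does. Both kinds of symbol cover ordinary protein-coding genes that have no agreed name, long non-coding RNAs (lncRNAs, transcripts with no long open reading frame), and pseudogenes, which are decayed copies of coding genes. Some lncRNAs lie beside or across a coding gene and are studied for effects on it, some carry small RNAs in their introns, and others have no known role. By RefSeq biotype on GRCm38.p6, 129 of the 244 were protein coding, 108 were lncRNAs and 7 were pseudogenes, and they lay on 20 chromosomes.

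The libraries held 28530750 to 35276533 counts. The 244 genes took 0.601% to 0.623% of the counts in the LPS plus PE-CUR libraries and 0.632% to 0.656% in the LPS libraries. Of the 5203 symbols, 2898 to 3092 had at least 1 count in an LPS plus PE-CUR library, against 3549 to 3630 in an LPS library. The same count was not made over all 21604 symbols, so whether this difference is particular to Gm and Rik symbols was not tested. All 8 macrophage markers were above 1 CPM, the lowest being Adgre1 at 56.6 CPM, and their summed level was 8765 to 9848 CPM with LPS plus PE-CUR and 10580 to 11240 CPM with LPS. Sums of 5 liver markers were 0.0284 to 67.6 CPM with LPS plus PE-CUR and 41.3 to 57.0 CPM with LPS, and those of 3 fibroblast markers reached 12.03 CPM with LPS plus PE-CUR and 0.927 CPM with LPS. The part of these other transcripts in the results was not tested. In bulk RNA, fewer cells of a type and less RNA per cell cannot be told apart.

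With LPS plus PE-CUR, 66 of the 244 genes were higher and 78 were lower than with LPS, and 100 did not pass the test (edgeR quasi-likelihood test over 13014 genes, Benjamini-Hochberg adjusted p under 0.05). The higher genes were 27.0% of the 244, beside 30.8% of all genes tested and 37.2% of the 9797 tested genes with a mean of at least 5 CPM. The lower genes were 31.97%, beside 32.7% and 31.4%. In either direction 59.0% passed, beside 63.4% and 68.6%. The libraries of the groups did not overlap in 68 genes upward and 94 downward, beside 30.2% and 38.4% of all genes tested (68.6% together) and 35.9% and 36.9% of those of at least 5 CPM (72.8% together). The median log2 fold change, LPS plus PE-CUR over LPS, was -0.03 for the 244 genes. It was -0.03 for all genes tested and 0.04 for those of at least 5 CPM. The values ran from -5.29 to 1.89, and 54.5% of the 244 lay within 0.5 of 0. At least 2-fold changes were called for 16 genes upward (6.56%, beside 6.37% of all genes tested and 6.14% of those of at least 5 CPM) and for 23 genes downward (9.43%, beside 11.5% and 5.39%). The 244 genes had a median level of 13.9 CPM, against 44.3 CPM for all genes of at least 5 CPM, so those shares compare genes of different levels.

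Because the inclusion rule used the mean over both groups, a gene that was high in 1 group only could enter. In 205 genes both group means reached 5 CPM, and 56 of these were higher and 56 lower, with 9 and 11 changed at least 2-fold. In 14 genes only the LPS plus PE-CUR mean reached 5 CPM, and in 25 only the LPS mean did. Those genes had to lean to 1 side, and their calls (10 higher among the 14 and 22 lower among the 25) support nothing further. Just inside the limit lay Gm16845 at 5.00 CPM, A530040E14Rik at 5.05 CPM and Gm10130 at 5.10 CPM, and just outside it 1110002J07Rik at 4.93 CPM, 9130008F23Rik at 4.90 CPM and Gm10509 at 4.89 CPM.

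By class, 40 of the 129 protein-coding genes were higher (31.0%) and 34 lower (26.4%), with a median log2 fold change of 0.08. Of the 9477 other protein-coding genes of at least 5 CPM, 37.5% were higher and 31.4% lower, with a median of 0.04. Of the 108 lncRNAs 25 were higher and 44 lower, with a median of -0.21, and 8 rose and 16 fell at least 2-fold. These 16 include at least the 8 named further on that reached 5 CPM through their LPS level alone, and so had to lean to that side. Of the 25 genes of any class that entered in this way, 12 fell at least 2-fold, so more of the 16 can be such genes. How the 108 divide without such genes was not tested. The other 50 lncRNAs of at least 5 CPM in the table, those with ordinary names, had 16 higher, 15 lower and a median of -0.13. Across all 1085 tested lncRNAs, whose median level was 0.987 CPM, 159 were higher (14.7%, beside 23.1% of the 108) and 314 lower (28.9%, beside 40.7%), 83 rose and 222 fell at least 2-fold, and the median was -0.20. Of the 7 pseudogenes 1 was higher and 6 did not pass.

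**Figure D1:**
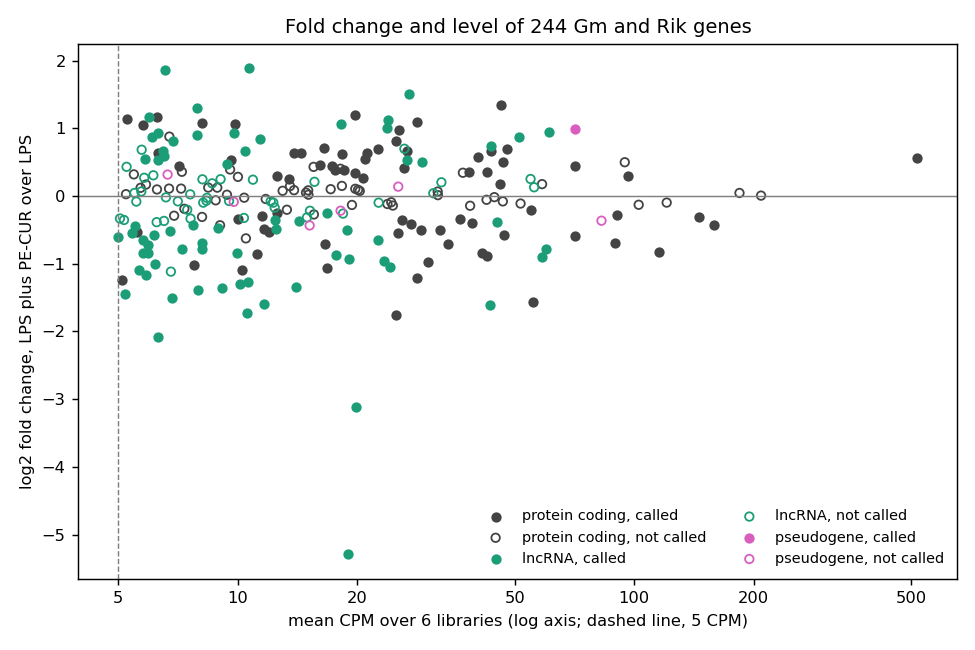
Log2 fold change (LPS plus PE-CUR over LPS, 3 libraries each) of the 244 Gm and Rik genes against their mean level over 6 libraries (CPM, log axis), with filled points for genes that passed the edgeR test. Most points lie within 0.5 of 0, and the lowest, at -5.29, is the lncRNA Gm46220.

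Of the 12 genes with the largest decreases, 8 reached the 5 CPM limit through their LPS level alone (Gm46220, Gm36841, Gm16576, Gm47815, Gm36117, F730311O21Rik, Gm31259 and 1300002E11Rik), and Gm38510, Gm11613, Gm6634 and Gm7592 had both means above it. Gm46220, an lncRNA gene on chromosome 10 (38059341 to 38063357) with no described role, had 0.682, 1.19 and 0.806 CPM in the LPS plus PE-CUR libraries, against 33.2, 40.4 and 37.5 CPM in the LPS libraries. All 3 LPS plus PE-CUR libraries were far below all 3 LPS libraries, a 39.2-fold lower level (log2 fold change -5.29, SE 0.17, edgeR adjusted p = 1.73e-08). Lama4, the nearest other tested gene on the chromosome, lay 902158 bases away. Gm36841, an lncRNA gene on chromosome 5, had 3.69, 4.83 and 3.29 CPM with LPS plus PE-CUR and 35.2, 33.6 and 38.9 CPM with LPS (log2 fold change -3.12, SE 0.14, edgeR adjusted p = 5.52e-08). Its groups were also well apart. It runs across Hspb8, which encodes a small heat shock protein, on the opposite strand, and Hspb8 had 2.91 ± 0.600 CPM with LPS plus PE-CUR and 17.8 ± 1.55 CPM with LPS (SD, n = 3 each; log2 fold change -2.55). How the counting treated strand is not stated in the labels, and reads of such overlapping pairs may have been mixed.

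Gm16576, an lncRNA gene on chromosome 15, had 2.26, 2.10 and 2.63 CPM with LPS plus PE-CUR and 8.31, 10.0 and 12.4 CPM with LPS (log2 fold change -2.08, SE 0.18, edgeR adjusted p = 2.84e-06). It starts 162 bases from the start of Sun2, which encodes a protein of the inner nuclear envelope and is read in the other direction. Sun2 had 66.1 ± 10.6 CPM with LPS plus PE-CUR and 70.4 ± 1.32 CPM with LPS (SD, n = 3 each; log2 fold change -0.04, edgeR adjusted p = 0.725), so of this head-to-head pair the lncRNA passed the test and the coding gene did not. Gm36117, on chromosome 17, lies 16625 bases from Sod2, the gene for mitochondrial superoxide dismutase. It had 3.46 ± 0.426 CPM with LPS plus PE-CUR and 10.2 ± 2.57 CPM with LPS (SD, n = 3 each; log2 fold change -1.51), whereas Sod2 had 105 ± 2.20 CPM with LPS plus PE-CUR and 59.5 ± 0.415 CPM with LPS (log2 fold change 0.87).

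The other lncRNAs among the 12 were Gm47815, Gm11613, Gm6634, F730311O21Rik, Gm31259 and 1300002E11Rik, with log2 fold changes from -1.73 to -1.36. Gm11613 was the most abundant of them, at 22.9, 21.2 and 18.2 CPM with LPS plus PE-CUR and 60.8, 60.8 and 75.4 CPM with LPS. Gm11613 lies 2723 bases from Mllt6, which rose (77.5 CPM with LPS plus PE-CUR and 49.6 CPM with LPS, log2 fold change 0.70). Gm47815 had 4.74 ± 0.951 CPM with LPS plus PE-CUR and 16.4 ± 1.12 CPM with LPS (SD, n = 3 each), and Gm6634 had 5.61 ± 0.805 CPM with LPS plus PE-CUR and 17.7 ± 1.52 CPM with LPS. In each of the 12 genes the groups did not overlap, which was part of how the 12 were chosen.

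The promoter windows of RefSeq on GRCm38.p6 (250 bases before to 50 bases after the annotated start) cover 193 of the 244 genes. Those of some genes with large changes are shown because these genes carry no functional name and their sequence is what identifies them. They are not the largest changes in order, and the window of Gm36841, which holds no motif match, is not shown. Of the windows shown, the first belongs to the largest decrease and the second to the lncRNA that shares its start region with Sun2. The third belongs to the largest increase, and the fourth to a gene that rose and holds motif matches.
Gm46220 (chr10:38059091-38059390, plus strand): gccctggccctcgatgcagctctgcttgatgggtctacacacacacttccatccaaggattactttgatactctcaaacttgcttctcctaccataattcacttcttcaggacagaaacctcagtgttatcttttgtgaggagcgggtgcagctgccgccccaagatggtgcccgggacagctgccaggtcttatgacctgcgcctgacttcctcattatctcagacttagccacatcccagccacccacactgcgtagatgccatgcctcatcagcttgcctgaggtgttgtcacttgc
Gm16576 (chr15:79742448-79742747, plus strand): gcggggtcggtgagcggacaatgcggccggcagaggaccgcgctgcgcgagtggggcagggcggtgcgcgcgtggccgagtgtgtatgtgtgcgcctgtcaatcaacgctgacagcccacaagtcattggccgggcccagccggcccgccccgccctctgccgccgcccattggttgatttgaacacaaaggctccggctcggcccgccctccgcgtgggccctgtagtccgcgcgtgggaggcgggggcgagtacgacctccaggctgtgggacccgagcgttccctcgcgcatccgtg
Gm15471 (chr3:103802879-103803178, plus strand): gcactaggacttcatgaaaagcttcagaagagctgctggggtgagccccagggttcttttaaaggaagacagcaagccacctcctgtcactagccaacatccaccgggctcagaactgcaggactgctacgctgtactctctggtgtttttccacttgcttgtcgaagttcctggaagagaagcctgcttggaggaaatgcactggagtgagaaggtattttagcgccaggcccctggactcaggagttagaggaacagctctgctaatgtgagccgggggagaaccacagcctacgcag
Gm364 (chrX:57408899-57409198, plus strand): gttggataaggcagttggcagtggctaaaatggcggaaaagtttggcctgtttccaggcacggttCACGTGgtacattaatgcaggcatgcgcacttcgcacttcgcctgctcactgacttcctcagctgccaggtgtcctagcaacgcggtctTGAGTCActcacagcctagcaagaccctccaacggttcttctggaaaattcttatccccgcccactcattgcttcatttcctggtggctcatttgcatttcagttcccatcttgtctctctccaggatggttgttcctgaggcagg
Capitals mark matches to the AP-1 site TGANTCA or the E-box CACGTG. The windows of Gm46220 and Gm15471 each hold 6 CG pairs and that of Gm16576 holds 38, at a G and C content of 71.7%.

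Motif letters were searched on both strands of each window. The AP-1 site TGANTCA, bound by Fos and Jun family factors, was in 12 of the 193 windows (6.22%, beside 7.93% of all 27025 windows), in 6 of the 55 windows of higher genes and in 3 of the 66 windows of lower genes. The core of the antioxidant response element, TGACNNNGC, was in 26 windows (13.5%, beside 12.5%), in 10 of the higher and 4 of the lower genes. The E-box CACGTG was in 24 (12.4%, beside 7.24%), in 10 of the higher and 5 of the lower genes. The interferon response element was in 4 (2.07%, beside 3.49%), in 1 of the higher and 2 of the lower genes. TATAAA was in 20 (10.4%, beside 14.2%), in 6 of the higher and 10 of the lower genes. The AP-1 letters can lie inside an antioxidant response element with flanking bases, and a match is a description of the sequence and not a binding site.

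Of the 12 genes with the largest increases, 6 reached the 5 CPM limit through their LPS plus PE-CUR level alone (Gm15471, A630034I12Rik, Gm41699, Gm11716, 2310039H08Rik and Gm364), and the other 6 had both means above it. Gm15471, an lncRNA gene on chromosome 3 (103803129 to 103808440), had 23.8, 13.3 and 12.9 CPM with LPS plus PE-CUR and 5.37, 4.33 and 4.28 CPM with LPS (log2 fold change 1.89, SE 0.25, edgeR adjusted p = 0.000368). All LPS plus PE-CUR libraries were above all LPS libraries, and 1 of them was well above the others. Its exons overlap those of Dclre1b, which encodes the Apollo nuclease, on the opposite strand, and Dclre1b had 116 ± 13.4 CPM with LPS plus PE-CUR and 93.9 ± 6.85 CPM with LPS (SD, n = 3 each; log2 fold change 0.36). A630034I12Rik, an lncRNA gene on chromosome 4 whose span overlaps the cyclin E2 gene Ccne2, had 9.92, 11.8 and 8.97 CPM with LPS plus PE-CUR and 3.12, 2.81 and 2.81 CPM with LPS (log2 fold change 1.87, SE 0.15, edgeR adjusted p = 1.84e-06). Ccne2 itself had 28.9 ± 8.97 CPM with LPS plus PE-CUR and 8.33 ± 1.64 CPM with LPS (SD, n = 3 each; log2 fold change 1.86).

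4933404O12Rik, an lncRNA gene on chromosome 5 that overlaps no annotated exon of another gene, had 42.7, 37.4 and 38.5 CPM with LPS plus PE-CUR and 13.8, 15.4 and 14.1 CPM with LPS (log2 fold change 1.51, SE 0.08, edgeR adjusted p = 1.31e-07). Replicates of each group lay close together and far from the other group. Gm41699 lies 6102 bases from Cd14, the gene for an LPS co-receptor. Gm41699 had 11.1 ± 0.458 CPM with LPS plus PE-CUR and 4.68 ± 0.233 CPM with LPS (SD, n = 3 each; log2 fold change 1.30), and Cd14 had 1528 ± 73.2 CPM with LPS plus PE-CUR and 1201 ± 72.7 CPM with LPS (log2 fold change 0.40). Gm20554 starts beside the homeobox gene Irx2 and runs the other way, and both rose (log2 fold change 1.12 for Gm20554 and 0.58 for Irx2). Gm11716 lies within the span of Pitpnc1, a phosphatidylinositol transfer protein gene, and had a log2 fold change of 1.17. Pitpnc1, on the opposite strand, was higher too (48.7 ± 19.4 CPM with LPS plus PE-CUR and 25.2 ± 4.92 CPM with LPS, SD, n = 3 each; log2 fold change 1.002, edgeR adjusted p = 0.0456).

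Of the protein-coding genes with large increases, D630023F18Rik had 28.5, 26.5 and 26.4 CPM with LPS plus PE-CUR and 12.5, 12.3 and 12.2 CPM with LPS (log2 fold change 1.19, SE 0.08, edgeR adjusted p = 3.93e-07). 9430015G10Rik had 39.5, 38.0 and 36.9 CPM with LPS plus PE-CUR and 19.7, 18.8 and 16.98 CPM with LPS (log2 fold change 1.10, SE 0.08, edgeR adjusted p = 7.43e-07). In both genes the groups were separated by far more than their spread. 2310039H08Rik, Gm364 and 1700030K09Rik were less abundant, with LPS plus PE-CUR means of 8.56, 7.17 and 10.9 CPM and LPS means of 3.96, 3.37 and 5.35 CPM, and log2 fold changes of 1.17, 1.14 and 1.08. The exons of 1700030K09Rik overlap those of Cherp on the opposite strand, and Cherp rose too (log2 fold change 0.63).

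**Figure D2:**
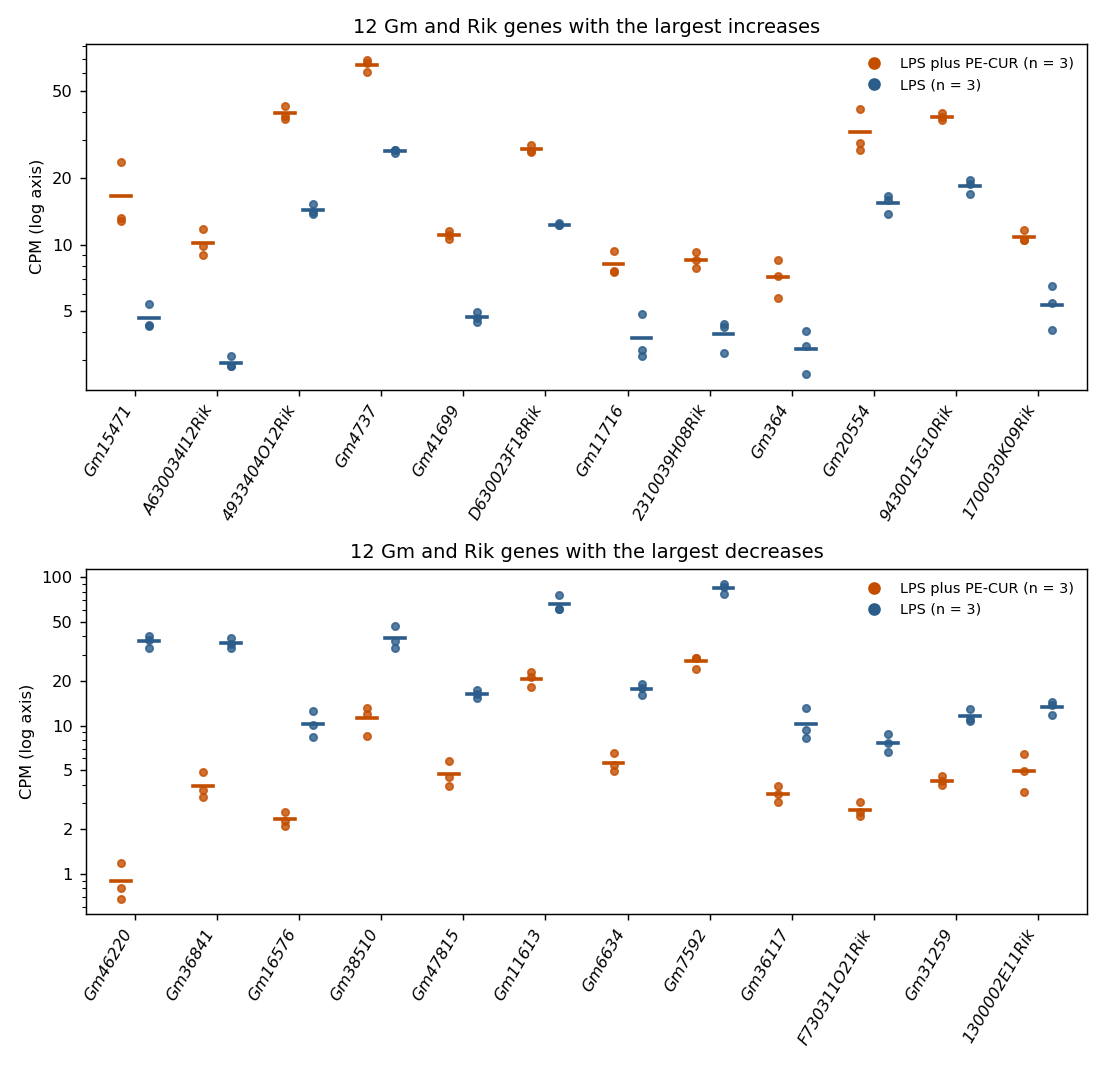
CPM (log axis) of the 12 Gm and Rik genes with the largest increases (top) and the 12 with the largest decreases (bottom), among genes that passed the test and whose groups did not overlap. Points are libraries (LPS plus PE-CUR left, LPS right, n = 3 each) and bars are group means; Gm46220 lies near 0.893 CPM with LPS plus PE-CUR and near 37.0 CPM with LPS.

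The most abundant of the 244 genes are protein coding and changed less. 2610507B11Rik, the mouse ortholog of KIAA0100 (BLTP2), encodes a bridge-like lipid transfer protein and was the highest in CPM. It had 662, 566 and 600 CPM with LPS plus PE-CUR and 438, 422 and 422 CPM with LPS, and was higher in all 3 LPS plus PE-CUR libraries (log2 fold change 0.57, SE 0.06, edgeR adjusted p = 8.98e-06). Its relative 4932438A13Rik (Kiaa1109, BLTP1) had 52.1, 190 and 84.2 CPM with LPS plus PE-CUR and 121, 54.6 and 66.5 CPM with LPS. Its libraries spread widely in both groups and the groups overlapped (log2 fold change 0.50, SE 0.65, edgeR adjusted p = 0.547). Without LPS plus PE-CUR replicate 2 its log2 fold change was -0.15, and over all alternatives it ran from -0.15 to 0.95.

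C130026I21Rik and 1700017B05Rik were lower, at 132 ± 3.03 CPM and 127 ± 12.7 CPM with LPS plus PE-CUR and at 185 ± 9.73 CPM and 164 ± 6.29 CPM with LPS (SD, n = 3 each; log2 fold changes -0.42 and -0.31). 2510009E07Rik, 9530068E07Rik and 1110004F10Rik did not pass. They had 205 ± 12.9, 184 ± 10.0 and 114 ± 5.61 CPM with LPS plus PE-CUR and 212 ± 6.37, 185 ± 4.84 and 127 ± 5.87 CPM with LPS (SD, n = 3 each; log2 fold changes 0.01, 0.05 and -0.10, edgeR adjusted p = 0.926, 0.491 and 0.234).

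Among genes whose means were at least 50 CPM in both groups, the largest called changes besides 2610507B11Rik were decreases. 5031439G07Rik, the ortholog of KIAA0930, had 84.7, 75.8 and 83.2 CPM with LPS plus PE-CUR and 137, 163 and 150 CPM with LPS (log2 fold change -0.83, SE 0.07, edgeR adjusted p = 2.90e-06). 1810013L24Rik, the ortholog of human C16orf72 (HAPSTR1), a stress-response regulator in human cells, had 65.4, 65.5 and 68.2 CPM with LPS plus PE-CUR and 111, 108 and 117 CPM with LPS (log2 fold change -0.70, SE 0.06, edgeR adjusted p = 2.59e-06). 4933434E20Rik (NICE-3), whose human ortholog C1orf43 has been implicated in phagocytosis, had 57.8, 52.4 and 55.6 CPM with LPS plus PE-CUR and 81.7, 86.7 and 90.0 CPM with LPS (log2 fold change -0.59, SE 0.06, edgeR adjusted p = 1.20e-05). In all 3 genes every LPS plus PE-CUR library was below every LPS library. 4933434E20Rik overlaps the start of Ubap2l on the opposite strand, and Ubap2l was higher (367 CPM with LPS plus PE-CUR and 264 CPM with LPS, log2 fold change 0.53).

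Genes compared per length (FPKM, which divides by the gene's length and the library total) took another order. With LPS plus PE-CUR the highest mean FPKM was 162 for the pseudogene Gm14681, followed by 91.0 for 1110038B12Rik, 82.9 for 2410006H16Rik, 82.6 for 1810037I17Rik and 74.8 for 2610507B11Rik. With LPS the highest was 113 for 2410006H16Rik, followed by 85.2 for Gm14681 and 74.97 for 9530068E07Rik. The medians over the 244 genes were 5.34 FPKM with LPS plus PE-CUR and 6.68 FPKM with LPS.

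A group of the genes lies beside Sp100 on chromosome 1, a region of repeated gene copies. Sp100 encodes a nuclear body protein known to be induced by interferon, and Sp110 and Sp140 are its relatives. Gm38510 had 8.43, 12.03 and 13.04 CPM with LPS plus PE-CUR and 33.6, 37.2 and 46.6 CPM with LPS (log2 fold change -1.75, SE 0.20, edgeR adjusted p = 0.000324). Gm7592 had 24.2, 28.7 and 28.7 CPM with LPS plus PE-CUR and 77.2, 85.5 and 89.5 CPM with LPS (log2 fold change -1.57, SE 0.09, edgeR adjusted p = 2.46e-07). In both genes every LPS plus PE-CUR library was below every LPS library. Gm7609 also fell, to 16.7 ± 2.56 CPM with LPS plus PE-CUR, against 40.1 ± 1.40 CPM with LPS (SD, n = 3 each; log2 fold change -1.21).

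Sp100 and A630001G21Rik, at the other end of the region, were higher. Sp100 had 92.3, 112 and 111 CPM with LPS plus PE-CUR and 51.3, 60.1 and 52.8 CPM with LPS (log2 fold change 0.997, SE 0.10, edgeR adjusted p = 1.89e-05). A630001G21Rik, next to it, had 47.5 ± 2.89 CPM with LPS plus PE-CUR and 33.2 ± 1.67 CPM with LPS (SD, n = 3 each; log2 fold change 0.58). Sp110 was slightly higher (log2 fold change 0.22), whereas Sp140 (log2 fold change -0.05, edgeR adjusted p = 0.554) and A530040E14Rik (log2 fold change -0.33, edgeR adjusted p = 0.124) did not pass. The annotated spans of Gm7609 and C130026I21Rik lie apart from each other, and each lies within that of Gm38510. Of the longest Gm7592 transcript, 56.8% matches Sp100 at 98.3% identity and 70.3% matches Gm7609 at 99.8%. Reads of these copies can be shared or dropped by the counting, so the level of each is uncertain. Gm7609, A630001G21Rik and 4932438A13Rik, and the genes named further on with their copies, small RNAs or relatives, were singled out after their values were seen, apart from those on the lists.

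**Figure D3:**
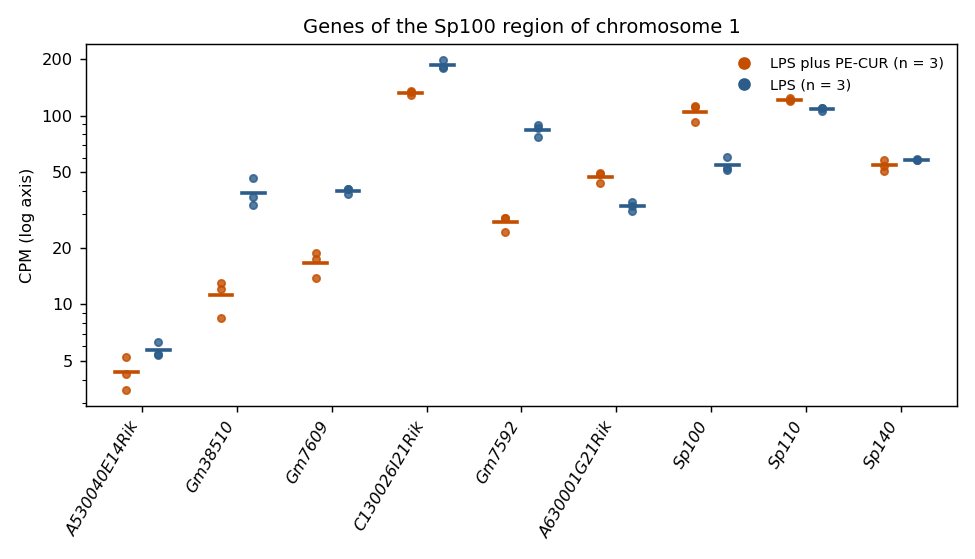
CPM (log axis) of the Gm and Rik genes near Sp100 on chromosome 1 and of Sp100, Sp110 and Sp140, with 1 point per library (LPS plus PE-CUR left, LPS right, n = 3 each) and bars at the group means. Gm38510, Gm7609 and Gm7592 are lower and Sp100 and A630001G21Rik are higher with LPS plus PE-CUR.

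Near-identical copies whose exons do not overlap the gene (at least 95% identity over at least 50% of the longest transcript) were found for 21 of the 244 genes, of which 7 were higher and 6 lower. Those shares were 33.3% and 28.6%, beside 30.8% and 32.7% of all genes tested. Gm14681, a pseudogene on chromosome X made from Npm1, the gene for the nucleolar protein nucleophosmin, had 76.3, 107 and 95.9 CPM with LPS plus PE-CUR and 59.6, 44.1 and 42.5 CPM with LPS (log2 fold change 0.99, SE 0.20, edgeR adjusted p = 0.00627). Npm1 had 1408 ± 162 CPM with LPS plus PE-CUR and 709 ± 76.9 CPM with LPS (SD, n = 3 each; log2 fold change 1.05). Gm4737, a coding retrogene-like copy of Ahcy, had 69.2, 60.7 and 66.6 CPM with LPS plus PE-CUR and 26.1, 26.8 and 27.0 CPM with LPS (log2 fold change 1.35, SE 0.07, edgeR adjusted p = 9.90e-08). Ahcy, whose enzyme breaks down S-adenosylhomocysteine, had 57.8 ± 3.56 CPM with LPS plus PE-CUR and 23.3 ± 3.47 CPM with LPS (log2 fold change 1.37). In both pairs the copy and its parent gene had nearly the same fold change. Aligned transcripts show how little separates them, which is why they are printed. Each pair that follows is, in the best aligned block, the ungapped stretch of 60 bases within the longest open reading frame of the parent gene that holds the most differing bases, from GENCODE M21 transcripts.
Gm14681 (bases 118 to 177 of its longest transcript): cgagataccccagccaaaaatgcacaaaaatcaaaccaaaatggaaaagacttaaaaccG
Npm1 (bases 813 to 872 of its longest transcript): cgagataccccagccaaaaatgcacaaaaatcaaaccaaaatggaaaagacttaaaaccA
Gm4737 (bases 480 to 539 of its longest transcript): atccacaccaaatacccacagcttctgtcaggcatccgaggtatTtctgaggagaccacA
Ahcy (bases 520 to 579 of its longest transcript): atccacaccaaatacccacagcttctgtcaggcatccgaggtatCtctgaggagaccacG
Gm2423 (bases 352 to 411 of its longest transcript): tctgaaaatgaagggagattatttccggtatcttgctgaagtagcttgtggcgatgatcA
Ywhaq (bases 528 to 587 of its longest transcript): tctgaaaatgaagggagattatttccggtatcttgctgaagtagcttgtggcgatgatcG
Capitals mark the bases that differ within a pair. These stretches hold 1 differing base for Gm14681 and Npm1, 2 for Gm4737 and Ahcy, and 1 for Gm2423 and Ywhaq. Stretches with gaps were left out, so other parts of a pair can differ more. Where the transcripts align, identity was 97.4% for Gm14681 and Npm1, 99.7% for Gm4737 and Ahcy, and 99.7% for Gm2423 and Ywhaq. Many reads from 1 gene of a pair could therefore match the other.

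Gm2423, a pseudogene of the 14-3-3 protein gene Ywhaq, had 26.1 ± 1.08 CPM with LPS plus PE-CUR and 24.7 ± 1.12 CPM with LPS (SD, n = 3 each; log2 fold change 0.14, edgeR adjusted p = 0.146), and Ywhaq had a log2 fold change of 0.18. Gm2808, which matches 99.7% of Tulp4 bases where they align, had 7.69 ± 2.44 CPM with LPS plus PE-CUR and 3.83 ± 0.461 CPM with LPS (SD, n = 3 each; log2 fold change 1.06), and Tulp4 had a log2 fold change of 0.80. Gm2808 reached the 5 CPM limit through its LPS plus PE-CUR level alone, and so had to lean upward. The other pseudogenes with an expressed parent did not pass, among them Gm20056 (log2 fold change -0.36, with 0.26 for its parent Chp1), Gm12854 (-0.22, with -0.32 for S100a11), Gm5454 (-0.43, with -0.08 for Etv1) and Gm5637 (-0.09, with 0.08 for Arpc1b). Of these, Gm5454 had 12.6 ± 2.23 CPM with LPS plus PE-CUR and 17.7 ± 4.51 CPM with LPS (SD, n = 3 each; edgeR adjusted p = 0.0750). The span of Gm20056 overlaps that of Tm4sf19 (log2 fold change -0.34), and the span of Gm12854 that of Uqcrh (-0.05). Whether these pairs share reads was not tested.

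**Figure D4:**
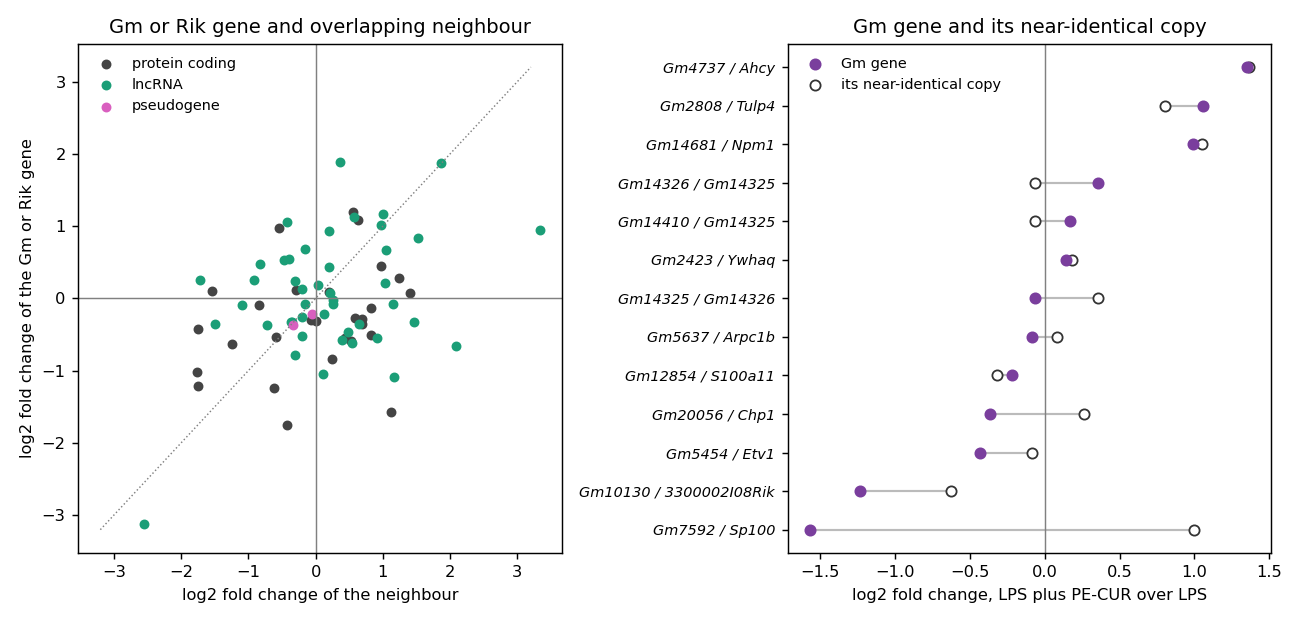
Left, log2 fold change (LPS plus PE-CUR over LPS) of each Gm or Rik gene whose span overlaps another tested gene, against that gene, with the dotted line at equal values. Right, log2 fold changes of the Gm genes (filled) and of an expressed near-identical coding gene (open), the one that covers most of the transcript. Ties in coverage were not broken by identity, and Gm10130 lies within the span of its copy 3300002I08Rik. Gm4737 and Ahcy lie together at 1.35 and 1.37, and Gm7592 and Sp100 lie apart at -1.57 and 0.997.

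Small RNA genes (snoRNA or miRNA genes) lie inside 11 of the 244 genes, of which 5 were higher and 6 lower. All 11 thus passed the test, beside 59.0% of the 244 genes and 63.4% of all genes tested. Hosts of small RNAs outside the 244 were not counted, so this is no measured trait of these hosts. A host transcript is cut to release such RNAs, which are themselves not measured here. 1110038B12Rik, which holds Snord52, had 58.9, 51.9 and 50.3 CPM with LPS plus PE-CUR and 33.4, 33.7 and 33.3 CPM with LPS (log2 fold change 0.74, SE 0.07, edgeR adjusted p = 4.89e-06). 2410006H16Rik, which holds Snord49a, Snord49b and Snord65, had 40.4, 36.6 and 37.6 CPM with LPS plus PE-CUR and 53.8, 47.7 and 54.5 CPM with LPS (log2 fold change -0.39, SE 0.07, edgeR adjusted p = 0.000643). These snoRNA hosts moved in opposite directions, with no overlap of the groups in either. The protein-coding host 2410002F23Rik, with Snord88a and Snord88c, was higher (58.1 ± 2.88 CPM with LPS plus PE-CUR and 37.3 ± 0.911 CPM with LPS, SD, n = 3 each; log2 fold change 0.69).

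Among miRNA hosts, 3110082I17Rik, with Mir339, had 38.4, 30.2 and 31.6 CPM with LPS plus PE-CUR and 18.8, 16.7 and 17.3 CPM with LPS (log2 fold change 0.98, SE 0.09, edgeR adjusted p = 5.53e-06). 2610318N02Rik, with Mir130b and Mir301b, had 20.2 ± 0.823 CPM with LPS plus PE-CUR and 12.8 ± 1.08 CPM with LPS (SD, n = 3 each; log2 fold change 0.71). 5031439G07Rik with Mir1249 and 2900076A07Rik with Mir1839 were lower, at log2 fold changes of -0.83 and -0.72. Mature miRNAs of the higher hosts are printed from RefSeq (GRCm38.p6) because they are known products of these otherwise unnamed genes, with the seed (bases 2 to 8) in capitals. Mir301b also gives miR-301b-3p, known as a member of the family of miR-130b-3p and named only.
mmu-miR-339-3p: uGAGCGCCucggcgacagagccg
mmu-miR-339-5p: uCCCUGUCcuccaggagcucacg
mmu-miR-130b-3p: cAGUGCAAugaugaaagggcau
mmu-miR-130b-5p: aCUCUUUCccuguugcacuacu
mmu-miR-301b-5p: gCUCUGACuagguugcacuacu

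Each of the 244 genes was set beside its nearest tested gene with another symbol. In 100 pairs both genes passed the test, and these had the same direction in 52 and opposite directions in 48. Over all 244 pairs the log2 fold changes had a Pearson r of 0.14 and a Spearman rho of 0.08, and over the 45 lncRNAs whose span overlaps the neighbour 0.37 and 0.13. These are descriptions across genes, which are not independent replicates, and overlapping genes share reads where counting ignores strand. Among overlapping neighbours the largest increase was that of Acod1 on chromosome 14. Acod1 encodes the enzyme that makes itaconate in activated macrophages. Gm41235 lies across its start on the opposite strand, and had 77.1, 80.01 and 80.3 CPM with LPS plus PE-CUR and 43.1, 47.8 and 36.7 CPM with LPS (log2 fold change 0.95, SE 0.09, edgeR adjusted p = 9.02e-06). Acod1 had 1219 ± 10.8 CPM with LPS plus PE-CUR and 126 ± 16.9 CPM with LPS (SD, n = 3 each; log2 fold change 3.33).

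Exons overlapped those of another annotated gene in 88 of the 198 genes with GENCODE M21 exons, 74 of them with the longest overlap on the opposite strand. Of the 88 genes 24 were higher (27.3%) and 30 lower (34.1%), and of the 110 without overlap 33 were higher (30%) and 30 lower (27.3%). The 46 genes without GENCODE exons, among them Gm46220 and Gm36841, had 9 higher (19.6%) and 18 lower (39.1%). Over all genes tested these shares were 30.8% and 32.7%.

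Several of the 244 belong to lists of small proteins or have relatives under ordinary names. Of 5 measured genes on a list of small, mostly mitochondrial proteins with a present or former Rik symbol, 2 were higher, 2 were lower and 1 did not pass, with a median log2 fold change of 0.10 beside -0.03 for all genes tested. Of all genes tested 30.8% were higher and 32.7% lower. 1810058I24Rik (Stmp1, Mm47), a small mitochondrial protein linked to the NLRP3 inflammasome in macrophages, had 21.2, 21.7 and 27.7 CPM with LPS plus PE-CUR and 32.7, 35.5 and 35.5 CPM with LPS (log2 fold change -0.50, SE 0.11, edgeR adjusted p = 0.00214). Mtln, which encodes mitoregulin, was lower too (log2 fold change -0.29). 1810037I17Rik (Aln), a micropeptide of the endoplasmic reticulum calcium pump and so not a mitochondrial one, had 76.2, 74.0 and 91.5 CPM with LPS plus PE-CUR and 57.3, 64.8 and 62.1 CPM with LPS (log2 fold change 0.45, SE 0.09, edgeR adjusted p = 0.00140). 2310039H08Rik, given above, was the other that rose.

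None of the 244 genes is on the lists of interferon-inducible GTPases, stefin A cluster genes or ribosomal RNA and satellite loci, since the Gm and Rik symbols measured from those lists lay under 5 CPM. Of 7 tested GTPase genes, which defend cells against intracellular microbes, 3 were higher and 4 did not pass, with a median log2 fold change of 0.34. Over all genes tested 30.8% were higher and 32.7% lower, with a median of -0.03. Irgm1 had 70.4 ± 11.1 CPM with LPS plus PE-CUR and 46.2 ± 4.73 CPM with LPS (SD, n = 3 each; log2 fold change 0.67), and Gm5431 had 2.32 ± 0.398 CPM with LPS plus PE-CUR and 1.40 ± 0.191 CPM with LPS (log2 fold change 0.78). Of 3 tested genes on the stefin list, inhibitors of cysteine proteases, 1 was lower, the stefin B gene Cstb (231 ± 35.7 CPM with LPS plus PE-CUR and 335 ± 31.6 CPM with LPS, SD, n = 3 each; log2 fold change -0.47). The stefin A genes Stfa2 and Stfa3, at low means of 0.677 and 0.833 CPM over all libraries, did not pass. The single ribosomal RNA related locus tested, AY036118, was at 0.202 CPM with LPS plus PE-CUR and 1.03 CPM with LPS.

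Of 11 genes among the 244 that RefSeq also lists under a KIAA cDNA name, 3 were higher, 2 were lower and 6 did not pass. Over all genes tested 30.8% were higher and 32.7% lower. 2700049A03Rik (Talpid3), needed for cilium formation, had 16.99, 17.8 and 17.2 CPM with LPS plus PE-CUR and 13.5, 9.61 and 11.7 CPM with LPS (log2 fold change 0.64, SE 0.12, edgeR adjusted p = 0.000865). 4933427D14Rik (Kiaa0753, moonraker), a protein of the centriole, had 18.9 ± 0.545 CPM with LPS plus PE-CUR and 17.7 ± 1.26 CPM with LPS (SD, n = 3 each; log2 fold change 0.15, edgeR adjusted p = 0.149).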

How the data were processed

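RNA was sequenced from 6 libraries of RAW 264.7 cells, 3 with LPS plus PE-CUR and 3 with LPS. Per the labels' protocols, TRIzol-extracted total RNA went into VAHTS Universal V6 libraries. The submitters' processing notes name mm10, fastp, HTSeq, SAMtools and DESeq2. Neither aligner nor annotation nor strand setting is given in the sources used here. The authors deposited 1 table of whole-number counts and 1 of FPKM values, both by gene symbol. The deposited FPKM values equal the count over gene length and library total in 100% of 105337 values above 0 (tolerance 0.001), so they are no second measurement.

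Counts were tested in R 4.3.3 with edgeR 4.0.16 (filterByExpr, which kept 13014 genes, all 244 among them; TMM factors of 0.964 to 1.03; robust quasi-likelihood fit with the group as its only term). Two-sided p-values were Benjamini-Hochberg adjusted over all genes tested, and 0.05 was the threshold. In each fold change LPS is the denominator. Its SE was taken as its size over the root of F, and levels are plain CPM of the library total, at 28530750 counts or more per library. The fit was also run on simulated data in which 200 genes were changed. That is far fewer than the 8256 of 13014 genes called in these data. The run therefore cannot check the scaling or the error rate where most genes change. Alternatives used DESeq2 1.42.0 and limma 3.58.1. Copies were searched with blastn 2.17.0 and overlaps with bedtools 2.31.1. In RefSeq GRCm38.p6 all 244 genes were found, and in GENCODE M21 198. Same-numbered replicates did not deviate together and were not treated as pairs.

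The members and lists were chosen with earlier results of these data known. Named are the 12 largest called changes in each direction without overlap of the groups, the 6 most abundant genes, the gene of smallest p in each direction of a class (protein coding, lncRNA, pseudogene), genes on the lists, 3 genes on each side of the 5 CPM limit, and the 4 largest called changes with both means of at least 50 CPM. Other members are named as chosen after their values were seen.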

Additional observations from a re-analysis of the deposited data

How the results depend on the processing

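Of the 144 called genes 123 held their call and direction in all 17 alternative fits (57 higher, 66 lower), and so did all 39 genes called with a change of at least 2-fold. With each library left out in turn, which leaves 2 in its group, 64 to 71 genes were higher and 67 to 77 lower, against 66 and 78 with all 6 libraries, and 16 called genes lost their call in at least 1 of these 6 fits. Of the 100 genes not called, 33 were called in at least 1 alternative. The lower share of the calls was 54.2% in the fit reported and 49.6% to 58.8% across alternatives. With the library size alone as scaling, the median log2 fold change of all genes was -0.09.

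Limma on log2(FPKM + 1), with or without the filter on low values, gave 4 genes at least 2-fold higher in place of 16, since the pseudocount shrinks the fold of low genes. A limit of 10 CPM left 8 genes at least 2-fold higher and 14 lower, and asking for 5 CPM in both groups left 9 and 11. Keeping only genes without exon overlap left 33 higher and 30 lower, 9 and 10 of them at least 2-fold. These limits keep fewer genes. Of the 100 genes not called, 34 changed sign in at least 1 alternative fit, and of the 144 called genes none did in these fits. Of those given with values, 4932438A13Rik was at -0.15 and Gm5637 at 0.06 without LPS plus PE-CUR replicate 2, against 0.50 and -0.09. 2510009E07Rik, at 0.01 in the fit reported, was at -0.0486 with the library size alone, -0.0265 with a filter at a mean of 1 CPM, -0.0486 with limma on log2(FPKM + 1) with or without the filter, and -0.0497 on log2(FPKM + 0.1). 9530068E07Rik, at 0.05, was at -0.00992, -0.0105 and -0.0106 with the library size alone and these limma fits at pseudocounts of 1 (with or without the filter) and 0.1.

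Same-numbered libraries correlated at -0.102, -0.178 and -0.048 in their deviations from the group means, so no shared deviation was seen. The labels state no pairing, and 3 libraries per group cannot settle whether the numbers mark pairs. With the replicate number as a block, 65 genes were higher and 73 lower, 63 and 73 of them shared with the fit without it. What depth limits was not tested. The spread between replicates was 9.99% of the mean with LPS plus PE-CUR and 8.64% with LPS for the median gene.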
